A study of Mus musculus with 11 samples.

Results

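The adipocyte genes of the mammary fat pad are 10 genes that mark fat cells, *Adipoq*, *Plin1*, *Fabp4*, *Cidec*, *Lep*, *Retn*, *Cfd*, *Pparg*, *Lpl* and *Car3*, read here as a measure of the fat tissue left in each mammary tumor. They were chosen by name, and all 10 are among the 26283 genes of the deposited tables. RNA was sequenced in bulk from 11 mammary tumors of 18-week-old female C57BL/6 mice. All 11 carried the MMTV-PyMT oncogene, the polyomavirus middle T antigen under a mammary tumor virus promoter, and MMTV-Cre. In 6 tumors, PyMT *Pcbp1*–/–, both *Pcbp1* alleles were floxed (fl/fl), and in 5 tumors, PyMT *Pcbp1*+/+, both were wild-type (wt/wt). The Cre recombinase acts in mammary epithelial cells, so that adipocytes are not its target. The labels give a single batch, and they do not say whether the tumors of a group came from separate animals, so that p-values measure only the spread between these tumors. Tumors are named below by genotype and replicate number, as in *Pcbp1*+/+ tumor 3.

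The mammary gland of the mouse lies in a pad of white fat, and the ducts grow through it. White adipocytes store triglyceride in a single large lipid droplet coated with proteins such as perilipin 1, take up fatty acids released by lipoprotein lipase, and secrete hormones such as adiponectin and leptin. As a mammary tumor grows it can displace the pad, and a dissected tumor can carry some of it along.

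Counts per tumor summed to between 10543189 and 14092192. Levels are given as CPM, each count scaled to the same total in every tumor. The limit that a count of 0 allows, 3 counts, was between 0.213 and 0.285 CPM, and covers counting error only. *Pcbp1* itself had 268, 271, 225, 220 and 259 CPM in *Pcbp1*+/+ tumors 1 to 5, and between 15.4 and 33.6 CPM with a median of 20.9 CPM in the 6 *Pcbp1*–/– tumors. The groups did not overlap for the deleted gene, whose log2 fold change was -3.43 (standard error 0.19, edgeR adjusted p = 4.72e-06).

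The first question was whether the fat pad genes differed with the *Pcbp1* genotype. They did not pass the test in either direction. Of the 10 genes, 9 passed edgeR's filter on low counts and 0 of these 9 were called at an adjusted p under 0.05, where 2.27% of all 19232 genes tested were called, 1.66% lower and 0.608% higher in PyMT *Pcbp1*–/– tumors. At an unadjusted p under 0.05, edgeR likewise gave 0 of 9, where 18.7% of all genes tested passed. DESeq2 and limma on log2 CPM called 0 of 9 as well, and limma-voom with sample quality weights called 0 with 2, *Plin1* and *Cfd*, at an unadjusted p under 0.05, which 30.3% of all genes passed in that fit. The groups overlapped in CPM for all 10 genes, while they did not overlap for 3.29% of all genes tested. The fitted log2 fold change was negative for each of the 9 genes with a median of -0.79, beside a median of 0 over all genes tested. With limma-voom and quality weights the log2 fold changes were larger in size, -2.13 for *Adipoq*, -2.45 for *Plin1*, -1.25 for *Fabp4*, -2.67 for *Cidec*, -1.20 for *Lep*, -2.59 for *Cfd*, -1.27 for *Pparg*, -1.09 for *Lpl* and -1.95 for *Car3*, with adjusted p of at least 0.129. With limma on log2(CPM + 1) they were smaller in size than in edgeR, except for *Lep* (-0.16). They were -0.19 for *Adipoq*, -0.47 for *Plin1*, -0.40 for *Fabp4*, -0.46 for *Cidec* and -0.77 for *Cfd*. The others were -0.22 for *Pparg*, -0.41 for *Lpl* and -0.64 for *Car3*. In edgeR the negative sign rested on *Pcbp1*+/+ tumor 3. Without it, the log2 fold change was positive for *Adipoq* (1.18), *Plin1* (0.61), *Fabp4* (0.58), *Cidec* (0.28), *Lep* (0.27), *Cfd* (0.48), *Lpl* (0.25) and *Car3* (0.55), and that of *Pparg* was near 0 (-0.05). In bulk tumors, fewer adipocytes and less RNA per adipocyte cannot be told apart.

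**Figure D1:**
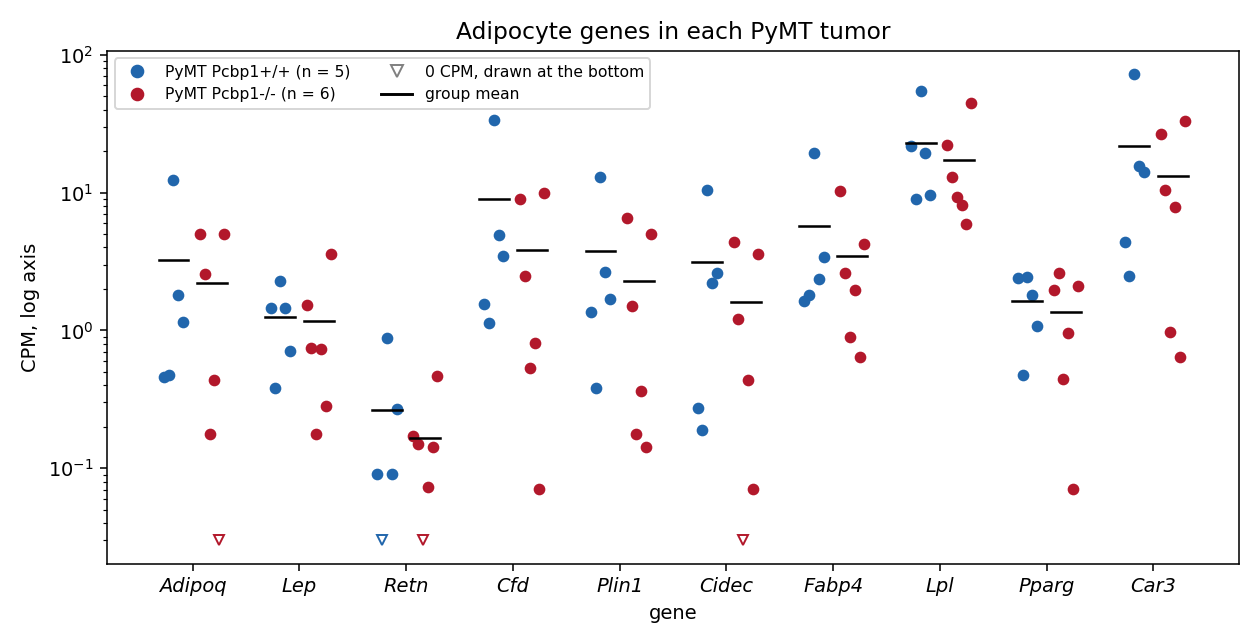
CPM of the 10 adipocyte genes (log axis) in each PyMT *Pcbp1*+/+ tumor (blue, n = 5) and PyMT *Pcbp1*–/– tumor (red, n = 6), with black lines for group means and open triangles for 0 CPM. The groups overlap for every gene, and the highest blue point is *Pcbp1*+/+ tumor 3 for each, from 0.876 CPM of *Retn* to 72.5 CPM of *Car3*.

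Among the secreted products, *Adipoq* encodes adiponectin, a hormone made almost only by adipocytes (ENSMUSG00000022878.5, chr16:23146536-23158028 of GRCm38, plus strand). It had 0.457, 0.474, 12.3, 1.82 and 1.16 CPM in *Pcbp1*+/+ tumors 1 to 5, and between 0 and 5.04 CPM with a median of 1.49 CPM in the 6 *Pcbp1*–/– tumors. *Pcbp1*+/+ tumor 3 stood highest, *Pcbp1*–/– tumors 1 and 6 came next with 5.04 and 5.02 CPM, and *Pcbp1*–/– tumor 5 had no count. Between tumor 3 of the *Pcbp1*+/+ group and that tumor, *Adipoq* was at least 57.6-fold lower in the latter, taking 3 counts as the limit of its 0. Means with SD were 2.21 ± 2.37 CPM for the PyMT *Pcbp1*–/– group (n = 6) and 3.24 ± 5.08 CPM for the PyMT *Pcbp1*+/+ group (n = 5). The log2 fold change was -0.64 (standard error 1.04, edgeR adjusted p = 0.778), and 2 standard errors on either side ran from -2.72 to 1.44, so that large differences in either direction were within the spread between tumors.

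*Cfd*, which encodes adipsin, the serine protease factor D of the alternative complement pathway (ENSMUSG00000061780.6, chr10:79890853-79892655, plus strand), had 1.55, 1.14, 33.8, 4.92 and 3.48 CPM in *Pcbp1*+/+ tumors 1 to 5. In the *Pcbp1*–/– tumors it lay between 0.071 and 10 CPM, with a median of 1.64 CPM. The same 3 tumors as for *Adipoq* were highest and *Pcbp1*–/– tumor 5 was again lowest, with 1 count. *Cfd* had the most negative log2 fold change of the 9 genes tested, -1.32 (standard error 1.03, edgeR adjusted p = 0.523), a difference that did not exceed the spread between tumors.

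*Lep*, the gene of the satiety hormone leptin (ENSMUSG00000059201.12, chr6:29060220-29073877, plus strand), had 1.46, 0.379, 2.28, 1.46 and 0.714 CPM in *Pcbp1*+/+ tumors 1 to 5 and between 0.178 and 3.56 CPM, with a median of 0.741 CPM, in *Pcbp1*–/– tumors. Its highest value came from *Pcbp1*–/– tumor 6, not from *Pcbp1*+/+ tumor 3. The log2 fold change was -0.11 (standard error 0.66, edgeR adjusted p = 0.947). *Retn*, the gene of resistin, a small secreted protein of mouse adipocytes (ENSMUSG00000012705.16, chr8:3655770-3660110, plus strand), had 28 counts over all tumors and at most 10 in any. It was at or under 3 counts in 9 of 11 tumors, did not pass the filter and is given no fold change. Its highest values were 0.876 CPM in *Pcbp1*+/+ tumor 3 and 0.464 CPM in *Pcbp1*–/– tumor 6.

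Of the lipid droplet proteins, *Plin1* encodes perilipin 1, which coats the droplet and controls the access of lipases to it (ENSMUSG00000030546.14, chr7:79720218-79732903, minus strand). It had 1.37, 0.379, 12.9, 2.64 and 1.7 CPM in *Pcbp1*+/+ tumors 1 to 5 and between 0.142 and 6.58 CPM, with a median of 0.933 CPM, in *Pcbp1*–/– tumors. *Cidec*, whose product joins droplets into the single large one of white fat (ENSMUSG00000030278.11, chr6:113424634-113435760, minus strand), had 0.274, 0.19, 10.4, 2.19 and 2.59 CPM in *Pcbp1*+/+ tumors and between 0 and 4.36 CPM, with a median of 0.819 CPM, in *Pcbp1*–/– tumors. For both genes *Pcbp1*+/+ tumor 3 was highest, followed by *Pcbp1*–/– tumors 1 and 6, and the groups overlapped. The log2 fold changes were -0.80 for *Plin1* (standard error 0.98, edgeR adjusted p = 0.7) and -1.05 for *Cidec* (standard error 1.03, edgeR adjusted p = 0.623).

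Among the genes of fatty acid handling, *Fabp4* encodes the fatty acid carrier of the adipocyte cytoplasm (ENSMUSG00000062515.3, chr3:10204088-10208576, minus strand). It had 1.64, 1.8, 19.5, 2.37 and 3.39 CPM in *Pcbp1*+/+ tumors 1 to 5 and between 0.639 and 10.3 CPM, with a median of 2.3 CPM, in *Pcbp1*–/– tumors. *Lpl* encodes lipoprotein lipase, which frees fatty acids from circulating triglyceride and is also made by macrophages and muscle (ENSMUSG00000015568.16, chr8:68880491-68907448, plus strand). It had 21.7, 9.01, 54.4, 19.3 and 9.65 CPM in *Pcbp1*+/+ tumors 1 to 5 and between 5.89 and 44.4 CPM, with a median of 11.1 CPM, in *Pcbp1*–/– tumors. *Lpl* varied least of the genes with counts in every tumor: its highest tumor had 9.24 times its lowest, against 30.5 times for *Fabp4* and 114 times for *Car3*. The log2 fold changes were -0.82 for *Fabp4* (standard error 0.80, edgeR adjusted p = 0.621) and -0.44 for *Lpl* (standard error 0.58, edgeR adjusted p = 0.721).

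*Pparg*, the nuclear receptor that drives adipocyte differentiation (ENSMUSG00000000440.12, chr6:115360951-115490399, plus strand), had 2.38, 0.474, 2.45, 1.82 and 1.07 CPM in *Pcbp1*+/+ tumors 1 to 5 and between 0.071 and 2.62 CPM, with a median of 1.46 CPM, in *Pcbp1*–/– tumors. It was the 1 gene of the 10 for which *Pcbp1*–/– tumor 2 was highest, and *Pcbp1*+/+ tumor 3 did not stand apart. *Car3*, the gene of carbonic anhydrase 3, abundant in white fat and slow muscle (ENSMUSG00000027559.5, chr3:14863512-14872523, plus strand), had 4.39, 2.47, 72.5, 15.6 and 14.2 CPM in *Pcbp1*+/+ tumors 1 to 5 and between 0.639 and 33.3 CPM, with a median of 9.16 CPM, in *Pcbp1*–/– tumors. The log2 fold changes were -0.28 for *Pparg* (standard error 0.61, edgeR adjusted p = 0.841) and -0.79 for *Car3* (standard error 0.96, edgeR adjusted p = 0.698).

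Per kilobase of exon, *Cfd* had the highest mean level over the 11 tumors with 6.4 CPM per kb, followed by *Car3* with 5.55 and *Lpl* with 1.61 CPM per kb. *Adipoq* (1.17 CPM per kb), *Fabp4* (0.906 CPM per kb) and *Cidec* (0.744 CPM per kb) lay in the middle, and *Plin1* (0.468 CPM per kb), *Lep* (0.361 CPM per kb), *Pparg* (0.213 CPM per kb) and *Retn* (0.0781 CPM per kb) were lowest. These lengths join all annotated exons of a gene, so that a gene with long rare transcripts is scaled down. Down to *Pparg*, the group means of neighbours in this order differed by less than the larger of their SDs between tumors. The SD within a group was between 52.1% and 157% of the group's mean over the 10 genes.

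The spread between tumors was the main feature of these genes. After the genotype means were taken out, the standard deviation of log2 CPM was 2.11 for *Car3*, 2.05 for *Cfd*, 2.04 for *Cidec*, 2.00 for *Adipoq* and 1.86 for *Plin1*, where the median over all genes tested was 0.28. *Car3* ranked 7 and *Cfd* 10 among the 19232 genes by this measure, and the gene of the 9 with the least spread, *Lpl* (1.06), still had only 2.23% of genes above it. Low counts add to the spread of log values, and their share in it was not tested. The summed CPM of the 10 genes was led by *Lpl* and *Car3*, with means of 19.7 and 17.2 CPM over all tumors. This sum was 221 in *Pcbp1*+/+ tumor 3, 112 in *Pcbp1*–/– tumor 6 and 87.4 in *Pcbp1*–/– tumor 1. It was 52.2, 38.2, 35.3 and 16.3 in *Pcbp1*+/+ tumors 4, 5, 1 and 2, and 37.3, 21.8, 12.6 and 7.95 in *Pcbp1*–/– tumors 2, 4, 3 and 5. *Pcbp1*+/+ tumor 3 was among the 3 highest tumors for 10 of 10 genes, *Pcbp1*–/– tumor 6 for 9 and *Pcbp1*–/– tumor 1 for 8, and *Pcbp1*–/– tumors 3 and 5 were among the 3 lowest for 9 each. Tumors of both genotypes thus stood at the top. *Pcbp1*–/– tumors 5 and 3 stood at the bottom, and *Pcbp1*+/+ tumor 2 came next, among the 3 lowest for 6 genes.

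The second question was which genes followed *Adipoq* from tumor to tumor within a genotype. Each gene was fitted with the genotype and the log2 CPM of *Adipoq*, and the slope is the log2 change of the gene for 1 log2 unit of *Adipoq*. Of the 8 other adipocyte genes tested, 5 rose with *Adipoq* at an edgeR adjusted p under 0.05, where 0.0312% of 19231 genes did, 6 genes in all. At an unadjusted p under 0.05, 8 of 8 had a positive slope, beside 5.46% of all genes with a positive and 4.41% with a negative slope at that p. Over all genes edgeR called 0 falling at an adjusted p, while DESeq2 called 26, limma-voom with quality weights 1 and limma on log2(CPM + 1) 0. The median slope of the 8 genes was 0.85, beside 0 over all genes tested.

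*Cfd* had a slope of 1.11 (standard error 0.06, edgeR adjusted p = 1.14e-05), *Plin1* of 1.02 (standard error 0.09, edgeR adjusted p = 0.00103) and *Car3* of 0.96 (standard error 0.10, edgeR adjusted p = 0.00482). *Cidec* had a slope of 1.11 (standard error 0.13, edgeR adjusted p = 0.00908) and *Fabp4* of 0.74 (standard error 0.08, edgeR adjusted p = 0.00551). A slope of 1 means that a gene changes by the same factor as this log2 CPM of *Adipoq*. Its prior count of 2 makes differences at low counts smaller than those of the CPM themselves. *Lpl* (slope 0.47, edgeR adjusted p = 0.0896), *Lep* (slope 0.52, edgeR adjusted p = 0.23) and *Pparg* (slope 0.45, edgeR adjusted p = 0.334) had smaller slopes and did not pass the adjustment in edgeR. *Lpl* was called with DESeq2 (adjusted p = 8.70e-05), with limma-voom (adjusted p = 0.0207), without *Pcbp1*+/+ tumor 1 (edgeR adjusted p = 0.0317) and with *Plin1* in place of *Adipoq* (edgeR adjusted p = 0.0225), and *Lep* with DESeq2 (adjusted p = 0.0286). The calls depended on the tumors in the fit. All 5 were kept without *Pcbp1*–/– tumor 1 and without *Pcbp1*–/– tumor 6. Without *Pcbp1*+/+ tumor 3 the adipocyte genes called were 2, *Cfd* and *Plin1*. Without *Pcbp1*+/+ tumor 3 and *Pcbp1*–/– tumor 5, the tumors farthest from the median of *Adipoq*, *Cfd* alone was called. In a fit added after seeing the data, without *Pcbp1*–/– tumors 1 and 6 and *Pcbp1*+/+ tumor 3, 0 genes were called, with 8 tumors left. The slopes themselves stayed positive in these fits, at 0.99 for *Cfd*, 0.89 for *Plin1*, 1.09 for *Car3*, 0.49 for *Fabp4*, 0.75 for *Pparg* and 0.20 for *Lpl* in the last, where *Cidec* and *Lep* no longer passed the filter. The counting error of *Adipoq*, which had between 0 and 140 counts a tumor, is not part of these standard errors.

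In likeness to *Adipoq* over the 11 tumors in log2 CPM, Pearson's r lay between 0.753 for *Retn* and 0.974 for *Cfd*, and Spearman's rho between 0.752 and 0.955. Over these 9 relations the two-sided permutation p, not adjusted, was at most 0.0102. Without the 2 tumors farthest from the median of *Adipoq*, r lay between 0.715 and 0.946. Over all 36 pairs of the 9 genes tested, r had a median of 0.90 and ran from 0.70 for *Fabp4* with *Pparg* to 0.97 for *Adipoq* with *Cfd*. With a term for a different slope in each genotype, added after seeing the data, edgeR called 0 of 19231 genes at an adjusted p under 0.05 and 871 at an unadjusted p. For the 8 adipocyte genes the difference of slopes, *Pcbp1*–/– minus *Pcbp1*+/+, ran from -0.16 for *Fabp4* to 0.43 for *Pparg*, with an edgeR adjusted p of at least 0.963.

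With *Adipoq* in the fit, the genotype term gives the difference in the other adipocyte genes beyond the part shared with *Adipoq*. It is not the same quantity as the log2 fold change without that term. For *Cfd* this difference was -0.77 in log2 (standard error 0.22, edgeR adjusted p = 0.0949). *Cfd* was the 1 adipocyte gene at an edgeR unadjusted p under 0.05 in this fit, for which the share of all genes was not counted. *Plin1* had -0.54 (standard error 0.32, edgeR adjusted p = 0.418) and *Car3* had -0.25 (standard error 0.35, edgeR adjusted p = 0.742), and 0 of the 8 genes were called. Over all genes, 397 were called with the *Adipoq* term and 436 without it, and 354 were in both lists, 89.2% of the first and 81.2% of the second.

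Of the genes outside the 10, *Plin4* was the 1 that edgeR called with *Adipoq*. It encodes perilipin 4, a coat protein of small and nascent lipid droplets in adipocytes (ENSMUSG00000002831.13, chr17:56100591-56109803). *Plin4* had 21, 8.54, 49.4, 21.9 and 18.2 CPM in *Pcbp1*+/+ tumors 1 to 5 and between 5.69 and 25.2 CPM, with a median of 11 CPM, in *Pcbp1*–/– tumors. The order of the tumors was that of *Adipoq* at the top, with *Pcbp1*+/+ tumor 3 first and *Pcbp1*–/– tumors 1 and 6 next. Its slope was 0.42 (standard error 0.06, edgeR adjusted p = 0.0369), and the call was lost in 14 of 24 alternatives, over which the adjusted p reached 0.74. Its genotype log2 fold change was -0.80 (standard error 0.49, edgeR adjusted p = 0.409).

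The other genes of fat storage were given as fixed lists, each described by its counts and median, with calls by edgeR. In the lipid droplet list, 1 of 8 genes tested rose with *Adipoq* (*Plin4*) and the median slope was 0.06. In the list of lipolysis genes, 0 of 7 were called and the median slope was 0.05, with slopes of 0.02 for *Abhd5*, the activator of triglyceride lipase, and 0.04 for *Mgll*, monoglyceride lipase. In the list of fatty acid uptake and triglyceride synthesis, 0 of 11 were called and the median was 0.06. At an edgeR unadjusted p under 0.05, slopes were positive for 2 of 8, 3 of 7 and 3 of 11 genes of these lists, beside 5.46% of all genes. The transporter *Slc27a1* had a slope of 0.07 and the acyl-CoA synthetase *Acsl1* one of 0.11. *Cd36*, the fatty acid translocase, had a larger slope of 0.56 (edgeR adjusted p = 0.0721) and is named after its value was seen. It was called with DESeq2, with limma-voom and with limma on log2(CPM + 1). DESeq2 also called 2 lipolysis genes, *Pde3b* and *Adrb3*, and limma-voom called *Pde3b*. None of these 3 lists held a gene called between the genotypes by edgeR, while limma-voom called *Plin4* lower in PyMT *Pcbp1*–/– tumors, and their median log2 fold changes were -0.05, -0.06 and -0.03.

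De novo fatty acid synthesis is also carried out by mammary epithelium. Of the 10 genes tested, 0 were called with *Adipoq*, the median slope was 0.05, and the desaturase *Scd1* (0.09) and the regulator *Srebf1* (0.05) lay near it. At an edgeR unadjusted p under 0.05, 2 of these 10 had a positive slope, beside 5.46% of all genes. The summed CPM of this list was between 1220 in *Pcbp1*–/– tumor 5 and 2170 in *Pcbp1*–/– tumor 2, a ratio of 1.78, where the 10 adipocyte genes differed by a ratio of 27.9. Among 12 adipogenic transcription factors and cofactors 0 were called, with a median slope of 0.10. At an edgeR unadjusted p under 0.05, 5 of these 12 had a positive slope, beside 5.46% of all genes. Between the genotypes edgeR called 0 of the 12, while limma-voom called *Prdm16* lower in PyMT *Pcbp1*–/– tumors. The factors *Cebpb* (-0.00) and *Rxra* (0.05), the partner of *Pparg*, had slopes near 0. The 2 largest slopes of the list, named after their values were seen, were 0.51 for *Ebf2* (edgeR adjusted p = 0.128) and 0.24 for *Ebf1* (edgeR adjusted p = 0.131). DESeq2 called these 2 genes.

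On the list of other secreted products 6 genes were tested, and 0 were called with *Adipoq*. Between the genotypes edgeR called 1 of the 6, *Nnat*, lower in PyMT *Pcbp1*–/– tumors, beside 1.66% of all genes. *Nnat* was put on this list, but it encodes neuronatin, a small membrane protein and not a secreted one, found in fat, brain and endocrine tissue. It had 11.1, 9.77, 10.9, 11.2 and 10.7 CPM in *Pcbp1*+/+ tumors 1 to 5 and between 5.46 and 8.37 CPM, with a median of 6.78 CPM, in *Pcbp1*–/– tumors. The groups did not overlap, and the log2 fold change was -0.64 (standard error 0.12, edgeR adjusted p = 0.0189). Its slope on *Adipoq* was 0.06 (unadjusted p = 0.0466, edgeR adjusted p = 0.5). The receptors of adiponectin, leptin and insulin had 0 of 5 genes called in either fit, a median slope of 0.02 and a median log2 fold change of -0.12, with slopes of 0.02 for *Insr* and -0.02 for *Adipor2*. Of 6 other adipocyte markers tested, 0 were called by edgeR and the median slope was 0.22, with 0.33 for the amine oxidase *Aoc3* (edgeR adjusted p = 0.0896) and -0.03 for *Retsat*. At an edgeR unadjusted p under 0.05, 3 of these 6 had a positive slope, beside 5.46% of all genes. *Tusc5* (0.50, edgeR adjusted p = 0.0572) and *Acvr1c* (0.74, edgeR adjusted p = 0.0721), named after their values were seen, came closest to a call. With limma-voom and with DESeq2, *Aoc3*, *Acvr1c* and *Tusc5* were called, and with limma on log2(CPM + 1) *Acvr1c* and *Tusc5*. Of the list of thermogenic fat, 1 gene was tested, the deiodinase *Dio2*, with a slope of 0.21 (edgeR adjusted p = 0.35), and the potassium channel gene *Kcnk3* (0.337 CPM on average) did not pass the filter.

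**Figure D2:**
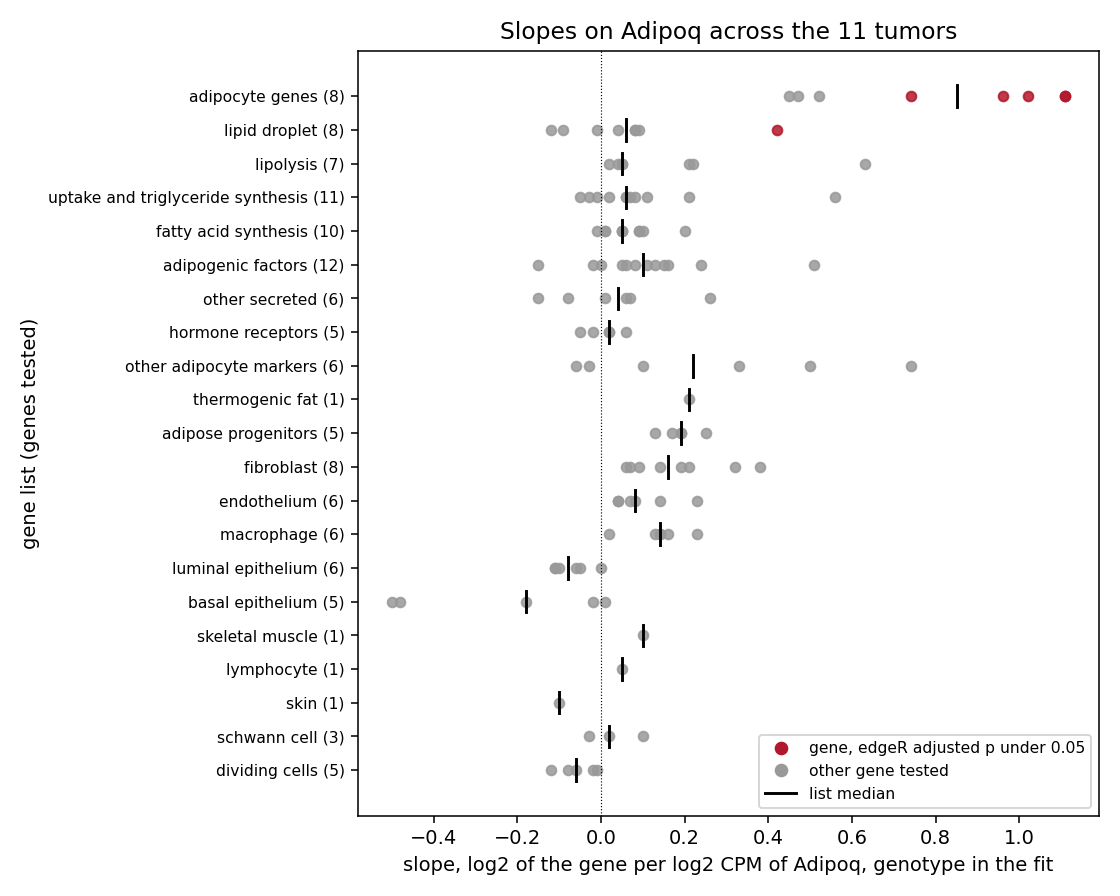
Slope of each tested gene on the log2 CPM of *Adipoq* with genotype in the edgeR fit (x axis, log2 per log2), by gene list (y axis, genes tested in brackets), with black bars for list medians and red points for genes at an adjusted p under 0.05. The adipocyte genes have a median of 0.85, the other lists lie between -0.18 and 0.22, and *Plin4* is the red point outside the adipocyte genes.

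For markers of other cell types the median slope of a list lay between -0.18 and 0.19. At an adjusted p, edgeR called 0 genes of any of these lists with *Adipoq*, while DESeq2 called *Cd34* and *Pdgfrb* of the progenitor list and *Col3a1* of the fibroblast list, all rising. At an unadjusted p under 0.05, slopes were positive for 5 of 5 markers of adipose progenitors tested (median 0.19, *Pdgfra* 0.19 and *Pdgfrb* 0.13), 5 of 8 of fibroblasts (median 0.16, *Col1a1* 0.07 and *Col3a1* 0.21), 4 of 6 of macrophages (median 0.14, *C1qb* 0.14 and *C1qa* 0.14) and 2 of 6 of endothelium (median 0.08, *Cdh5* 0.04 and *Pecam1* 0.08), beside 5.46% of all genes. The progenitor and fibroblast lists share *Pdgfra*. Slopes were negative at that p for 2 of 6 luminal epithelial markers (median -0.08, *Cdh1* -0.06 and *Epcam* -0.10) and 1 of 5 basal markers (median -0.18, *Oxtr* 0.01 and *Krt5* -0.18), beside 4.41% of all genes. Those that passed, named after their values were seen, were *Krt8* (-0.11), *Krt18* (-0.11) and the basal *Krt17* (-0.50). Between the genotypes edgeR called 0 genes of these 6 lists, and their median log2 fold changes were 0.29 for progenitors, 0.31 for fibroblasts, 0.24 for macrophages, -0.27 for endothelium, -0.07 for luminal and -0.04 for basal epithelium.

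The summed CPM of the 8 fibroblast markers, led by *Col1a1*, was 525, 630, 813, 855 and 456 in *Pcbp1*+/+ tumors 1 to 5. In *Pcbp1*–/– tumors 1 to 6 it was 806, 816, 704, 727, 481 and 1090. The 6 macrophage markers, led by *C1qb*, summed to 187, 126, 218, 180 and 95.4 CPM in *Pcbp1*+/+ tumors and to 278, 196, 183, 137, 142 and 205 CPM in *Pcbp1*–/– tumors. *Pcbp1*–/– tumors 1 and 6 and *Pcbp1*+/+ tumor 3 were thus high in macrophage markers too, and *Pcbp1*–/– tumor 6 was highest in fibroblast markers. The 6 progenitor markers, led by *Pdgfra*, summed to 76.3, 78.8, 109, 108 and 61.8 CPM in *Pcbp1*+/+ tumors and to 102, 127, 85.3, 93.9, 62.2 and 146 CPM in *Pcbp1*–/– tumors. The 6 luminal markers, led by *Cdh1*, summed to 1650, 1160, 1230, 1510 and 1400 CPM in *Pcbp1*+/+ tumors and to 943, 1100, 1510, 1450, 1590 and 1330 CPM in *Pcbp1*–/– tumors. They were lowest in *Pcbp1*–/– tumor 1 and high in *Pcbp1*–/– tumor 5, which had the least fat pad RNA. No listed marker of these cell types was at 0 in all tumors, and their part in the slopes of the fat pad genes was not tested.

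Muscle shares *Car3* and *Lpl* with fat. The 8 skeletal muscle markers, led by *Acta1*, summed to 2.01, 0.474, 0.789, 1.09 and 29.2 CPM in *Pcbp1*+/+ tumors 1 to 5 and to 22.5, 1.27, 1.16, 19.6, 2.48 and 2.71 CPM in *Pcbp1*–/– tumors 1 to 6. The tumors high in muscle markers, *Pcbp1*+/+ tumor 5 and *Pcbp1*–/– tumors 1 and 4, differed from those high in fat pad genes except for *Pcbp1*–/– tumor 1. *Acta1*, the 1 muscle gene tested, had a slope on *Adipoq* of 0.10 (edgeR adjusted p = 0.927), and *Myh4* was at 0 in 7 tumors. In *Pcbp1*+/+ tumor 3, with 72.5 CPM of *Car3*, the 8 muscle markers together had 0.789 CPM. The share of muscle RNA in *Car3* and *Lpl* was not tested. The lists of lymphocytes (1 gene tested, *Cd3e* 0.05, with *Cd2* not tested), skin (1 gene tested, *Krt10* -0.10, with *Krt1* not tested), Schwann cells (3 genes tested, *Sox10* 0.02 and *Mbp* -0.03) and dividing cells (5 genes tested, *Mki67* -0.02 and *Top2a* -0.08) had 0 genes called with *Adipoq* by edgeR and, at an unadjusted p under 0.05, 0 as well.

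Since 5 of the genes rose together, the sequence around their starts was looked at. RefSeq promoters of GRCm38.p6, 250 bases before to 50 after the start, were at hand for 7 of the 10 genes, 10 promoters in all. *Fabp4*, *Lpl* and *Car3* had no entry. Searched on both strands were AGGTCA, the element bound by nuclear receptors such as the product of *Pparg*, TTGCNNAA, the core of C/EBP sites, CCAAT and TATAAA. TTGCNNAA was in promoters of *Plin1*, *Cidec*, *Lep* and *Pparg*, 4 of 10 promoters, and in 10.8% of 32851 promoters of this length. CCAAT was in 3 of 10 (37.4% of all), AGGTCA in 2 of 10, both of *Pparg* (16.3% of all), and TATAAA in 1 of 10 (13.6% of all). The promoters of *Cfd* and *Retn* held none of these letters. *Plin1* and *Cidec*, which were called with *Adipoq*, share TTGCNNAA with *Lep* and *Pparg*, which edgeR did not call. The other RefSeq promoter of *Cidec*, chr6:113435711-113436010, spans the annotated start of the gene and held none of the motifs. Motif matches are a description and not binding sites.

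The promoters of *Adipoq*, the reference of the slopes, and of *Plin1* and *Cidec*, which rose with it, are shown in the direction of transcription, with the searched motifs of either strand in capitals. That of *Adipoq* lies at chr16:23146286-23146585 on the plus strand, that of *Plin1* at chr7:79732727-79733026 on the minus strand, and that of *Cidec* with a motif at chr6:113434715-113435014 on the minus strand. In *Adipoq*, CCAAT begins at -34 and -27 on the minus strand and at -7 on the plus strand, counted from the start of transcription of that RefSeq promoter. For *Cidec* and *Plin1* this start lies inside the gene as annotated in the deposited tables. In *Plin1*, TTGCNNAA begins at -187 and -58, and in *Cidec* at -198.
Adipoq: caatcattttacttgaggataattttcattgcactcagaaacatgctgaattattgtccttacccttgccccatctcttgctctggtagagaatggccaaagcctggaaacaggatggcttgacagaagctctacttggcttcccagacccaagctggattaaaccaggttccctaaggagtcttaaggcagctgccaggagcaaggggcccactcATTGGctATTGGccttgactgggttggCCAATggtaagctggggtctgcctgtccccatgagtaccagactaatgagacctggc
Plin1: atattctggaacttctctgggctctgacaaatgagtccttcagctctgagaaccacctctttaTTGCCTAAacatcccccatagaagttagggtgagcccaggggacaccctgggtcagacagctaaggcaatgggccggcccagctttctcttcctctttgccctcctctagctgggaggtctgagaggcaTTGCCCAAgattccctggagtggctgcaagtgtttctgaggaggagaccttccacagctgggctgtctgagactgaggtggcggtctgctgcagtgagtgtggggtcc
Cidec: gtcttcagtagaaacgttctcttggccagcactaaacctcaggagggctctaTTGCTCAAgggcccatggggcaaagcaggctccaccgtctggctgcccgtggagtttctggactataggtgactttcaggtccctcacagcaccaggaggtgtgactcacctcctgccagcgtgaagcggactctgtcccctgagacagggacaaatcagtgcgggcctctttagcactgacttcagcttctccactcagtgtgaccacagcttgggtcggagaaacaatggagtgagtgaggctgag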

How the data were processed

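According to the submitters' notes and paper, tumors were frozen in liquid nitrogen and RNA extracted with Trizol gave poly(A)-enriched stranded libraries, paired-end reads were checked with FastQC and aligned to GRCm38 with Bowtie2, and Partek was used. Versions, counting method and annotation version are not given in the sources used here. The authors deposited estimated counts per gene, of which between 18.1% and 19.8% are not whole. The deposited CPM are these estimated counts divided by the total of their tumor, with differences of at most 0.00772 as a fraction from rounding.

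Since edgeR was given whole numbers, each deposited value of the estimated counts was rounded first. In R 4.3.3, edgeR 4.0.16 scaled them by TMM, kept 19232 of 26283 genes by its default expression filter, and compared *Pcbp1*–/– with *Pcbp1*+/+ by quasi-likelihood. The slope fit added the log2 CPM of *Adipoq* (prior count 2) to the genotype and left *Adipoq* itself untested. P-values were adjusted by Benjamini-Hochberg over all genes in the fit, with a threshold of 0.05. A standard error is the absolute log2 fold change over the square root of F. Permutation p of correlations came from 100000 shuffles. Exon lengths came from GENCODE vM39, another build, matched by Ensembl identifier and used for levels per kilobase only. Gene ends are the deposited stop minus 1. Promoters came from RefSeq on GRCm38.p6.

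The alternatives were library size only, upper-quartile factors, no filter, at least 1 CPM in at least 5 tumors, DESeq2 1.42.0, limma 3.58.1 as voom with weights per sample and as a trend fit of log2 CPM (0.1 or 1 added), each tumor left out, and a replicate block. For the slopes, *Plin1* in place of *Adipoq*, no genotype term and tumors left out by their *Adipoq* level were also tried. The fit without 3 tumors and the term for a slope per genotype were added after seeing the data, and a few genes are named in the text as chosen after their values were seen.

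The genes and gene lists were chosen with earlier results of these data known, and lists were therefore given no test of their own. By rule, named genes were all 10 adipocyte genes, in each list the genes called in either fit (up to 4 of lowest p) or otherwise the 2 of highest mean CPM, and the 10 genes outside the adipocyte genes with the highest r to *Adipoq*. Listed genes without a row in the tables (among them *Nampt*, *Serpina12*, *Retnla*, *Orm1*, *Elovl3*, *Cox7a1*, *Zic1*, *Fabp3*, *Ms4a1*, *Cd79a* and *Krt2*) were not analysed here.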

Additional observations from a re-analysis of the deposited data

Results flagged for a closer look

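Each of the 10 genes was searched within each genotype, 20 groups of values, for a tumor set apart by its gap to the nearest value, taken over the range of the group. There were 9 such groups. The gaps were taken on CPM and not on log values, and how often chance gives such gaps on that scale was not tested. The genes move together, so that these are not separate cases.

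*Pcbp1*+/+ tumor 3 stood apart at the top of its group in 7 of the 10 genes. It had 12.3 CPM of *Adipoq* (nearest 1.82 CPM), 12.9 CPM of *Plin1* (nearest 2.64 CPM), 19.5 CPM of *Fabp4* (nearest 3.39 CPM) and 10.4 CPM of *Cidec* (nearest 2.59 CPM). It also had 33.8 CPM of *Cfd* (nearest 4.92 CPM), 54.4 CPM of *Lpl* (nearest 21.7 CPM) and 72.5 CPM of *Car3* (nearest 15.6 CPM). Its *Pcbp1* level of 225 CPM lay within the range of its group, 220 to 271 CPM, and its total of 11411776 counts within that of the other tumors. Why this tumor holds more fat pad RNA was not tested.

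Among *Pcbp1*–/– tumors, *Fabp4* was high in tumor 1 (10.3 CPM, nearest 4.25 CPM) and *Retn* in tumor 6 (0.464 CPM, nearest 0.171 CPM), the latter at a few counts.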

How the results depend on the processing

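The count of adipocyte genes called between the genotypes, 0 in either direction, held in all 21 alternatives. All genes called were 319 lower and 117 higher in PyMT *Pcbp1*–/– tumors. They were 723 and 482 with DESeq2, 1190 and 968 with limma-voom, and 118 and 42 with the replicate block in the 10 tumors numbered 1 to 5. With each tumor left out in turn they ranged from 144 to 389 lower and from 41 to 187 higher. With each tumor left out, log2 fold changes ran from -1.08 to 1.18 for *Adipoq*, -1.45 to 0.61 for *Plin1*, -1.53 to 0.58 for *Fabp4*, -1.63 to 0.28 for *Cidec*, -0.34 to 0.27 for *Lep*, -1.91 to 0.48 for *Cfd*, -0.57 to -0.03 for *Pparg*, -1.02 to 0.25 for *Lpl* and -1.32 to 0.55 for *Car3*. *Lep* failed the filter without *Pcbp1*–/– tumor 1 or 6, so that its range covers 9 of 11 tumors left out. All positive ends came without *Pcbp1*+/+ tumor 3, and *Lep* was also positive without *Pcbp1*–/– tumor 3 (0.11) or 5 (0.10).

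The number of adipocyte genes rising with *Adipoq*, 5 in edgeR, was 3 with the replicate block (3 genes rising and 2 falling in all), 1 without the 2 tumors farthest in *Adipoq* (1 in all), and 0 without *Pcbp1*–/– tumors 1 and 6 and *Pcbp1*+/+ tumor 3 (0 in all), a choice made after seeing the data; fewer tumors are part of each. It was 7 with DESeq2 and 6 with limma-voom, without *Pcbp1*+/+ tumor 1 and with *Plin1* in place of *Adipoq*. Other counts were 118 rising and 26 falling with DESeq2, 19 and 1 with limma-voom, 10 rising with limma on log2(CPM + 1), and 10 rising with *Plin1* in place of *Adipoq*, against 6 and 0. With each tumor left out, 2 to 6 adipocyte genes and 2 to 8 genes in all rose and 0 to 1 fell. No slope of an adipocyte gene changed sign. The causes were not tested.

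The labels do not say whether same-numbered tumors are paired. Deviations of same-numbered tumors correlated between -0.14 and 0.29, and 2 of 5 *Pcbp1*–/– tumors correlated best with their own number. So few numbers cannot decide whether they pair the tumors. Tumors at or under 3 counts numbered 9 for *Retn*, 4 for *Cidec*, 2 each for *Adipoq* and *Plin1*, and 1 each for *Lep*, *Cfd* and *Pparg*.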

Other observations

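The 10 genes outside the adipocyte genes most like *Adipoq* over the 11 tumors, by Pearson's r in log2 CPM among genes tested, were RP24-68G17.2 (0.930), *Foxs1* (0.928), AC171273.3 (0.924), *Brf1* (0.917), *Acvr1c* (0.915), *Tm6sf1* (0.912), *Nlrp1c-ps* (0.905), *Hnrnpul1* (0.892), *Klf2* (0.890) and *Col15a1* (0.886). Of these, *Acvr1c*, an activin-type receptor of adipocytes, is also on the list of other adipocyte markers. They differed in size of slope, from 0.04 for *Hnrnpul1* to 0.74 for *Acvr1c*, and 0 of the 10 passed the adjustment in the slope fit (edgeR adjusted p between 0.0572 and 0.466). Limma-voom called *Acvr1c*, *Col15a1* and *Nlrp1c-ps*. In edgeR, *Col15a1* was called without *Pcbp1*–/– tumor 2, without *Pcbp1*+/+ tumor 5 and with *Plin1* in place of *Adipoq*. *Acvr1c* was called in edgeR without *Pcbp1*+/+ tumor 2. Being the highest among all genes tested, these r are expected to be high by selection. All 10 r are over n = 11 tumors. Without the 2 tumors farthest in *Adipoq* they lay between 0.794 and 0.912. AC171273.3 is annotated as antisense.

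Some further genes expressed in fat, named after their values were seen, did not share 1 pattern. *Ucp1*, the uncoupling protein of brown fat, had 23 counts, all in *Pcbp1*–/– tumor 1 (1.96 CPM), and was at 0 in the other 10 tumors. *Cidea*, also typical of brown fat, was highest in that tumor (1.11 CPM), with *Pcbp1*+/+ tumor 5 next. *Pck1*, the enzyme of glyceroneogenesis, had 11.9 CPM in *Pcbp1*–/– tumor 1 and 7.53 CPM in *Pcbp1*+/+ tumor 3, with a median of 0.365 CPM. *Cyp2e1* had 5.61 CPM in *Pcbp1*+/+ tumor 3 and at most 0.618 CPM elsewhere. The 3 tumors highest in fat pad genes thus differed in these genes, each of which rests on 1 or 2 tumors and was not tested.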
